A study of Drosophila melanogaster with 33 samples.

Results

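Out of 16240 linear genes measured in ageing fly heads, 14 were still near their day 10 level at day 30 and well above it at day 50, in both sexes. They were chosen on group means. In each sex the day 50 mean had to be at least 50 normalized reads and at least 2 times the day 10 mean, and the day 30 mean at most 1.4 times the day 10 mean. In males 10695 genes passed the level, 449 of these also the day 50 condition, and 119 all conditions. In females the numbers were 10615, 551 and 47. The level and day 50 conditions together were met in both sexes by 282 genes, so the condition on day 30 left 14 of these 282. All 14 had a mean of at least 10 normalized reads over all libraries, the level that 12685 genes reached and from which genes were tested. Days 10, 30 and 50 served to choose the genes and are described below without a test. Days 0, 20 and 40 did not, and tests were made on these ages alone.

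The flies were CantonS, a wild-type laboratory strain, with no further allele or treatment. Males gave 15 libraries (3 each at days 0, 30 and 40, and 2 each at days 10, 20 and 50) and females gave 18 (3 at each of 6 ages), where day 0 means young mated flies soon after eclosion. Each library was made from a pool of heads, as total RNA depleted of ribosomal RNA. The labels do not say which pools were independent cohorts, so p-values measure only the spread between these libraries, and in whole heads more cells of a type and more RNA per cell cannot be told apart.

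Several of these genes belong to families that cells use against chemical and protein damage. Glutathione transferases of the Delta class join glutathione to reactive compounds, which makes these easier to remove, and in flies they are known for their part in the detoxification of insecticides and of products of oxidation. Heat shock proteins of the Hsp70 family bind unfolded proteins, and their genes are known for a very rapid induction by heat through the heat shock factor. Serpins are protease inhibitors that trap their target protease. The ageing fly head is known for a growing expression of stress and immune genes.

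Linear reads, recovered from the normalized values, ran from 28848182 to 94953552 per library (median 56701537) in 32 libraries, all but male day 20 replicate 1. A normalized read was worth about 1 read in most libraries, so a gene at 50 normalized reads rests on roughly that many reads. Markers of neurons, glia, photoreceptors, fat body, muscle and hemocytes were all present, and all 5 midgut markers had a mean below 10 normalized reads. The sum of 5 testis markers was 285.3 to 330 normalized reads in males of day 10, an age used for the choice. It was 7.0 to 13.5 in males of day 20, 13.3 to 86.9 at day 40 and 10.4 to 56.9 at day 50. Its part in the choice was not tested. Male day 20 replicate 1 stood apart: its GC-rich genes were high relative to its GC-poor genes, by 0.89 (log2) from the mean of males at days 0, 10, 30 and 50, where day 20 replicate 2 deviated by -0.0097. Male day 40 replicate 1 deviated in the same way by 0.35, and the other male libraries by -0.051 to 0.057. Results in males are therefore also given without these libraries where that matters.

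All 14 genes are protein coding, as are 88.57% of the tested genes that the annotation holds. Their median exonic length was 1086 bases against 1790 bases for all tested genes. Longer than 1790 bases were sti (6084), frac (5438), CG44774 (4213), CG5290 (2917) and Hsp70Bc (2386). Their median level was 131.6 normalized reads for the 14 genes against 784.9 for all tested genes. Per kilobase of exon, levels ranged over all libraries from 9.22 normalized reads for sti to 18090 for GstD1.

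Positions are those of the dm6 genome. On chromosome 3L are frac (FBgn0035798, 3L 7562610 to 7569499), short for faulty attraction, which encodes a fibrillin-like protein of the extracellular matrix, sti (FBgn0002466, 3L 12507998 to 12514815), short for sticky, the citron kinase that acts at the end of cell division, and CG5290 (FBgn0036772, 3L 17909483 to 17912565). The serpin gene Spn55B (FBgn0028983, 2R 18126347 to 18128210) is the single one on 2R. CG44774 (FBgn0266000, X 4926664 to 4938105) and CG15337 (FBgn0030014, X 8160054 to 8161552) are X-linked. On 2L are CG43055 (FBgn0262357, 2L 4411155 to 4411824), CG7294 (FBgn0032284, 2L 10688734 to 10689271), CG31848 (FBgn0051848, 2L 13264996 to 13265876) and CG13962 (FBgn0032824, 2L 19813704 to 19814532). The annotation gives no described function for the genes with CG names. CG5290, CG15337, CG43055, CG31848 and CG13962 overlap a gene on the other strand, and sti and CG44774 overlap a noncoding gene on their own strand. The strand setting of the counting is not given in the sources used here, so reads of overlapping genes may be mixed.

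The remaining 4 lie on chromosome 3R. GstD10 (FBgn0042206, 3R 12364776 to 12365735), GstD1 (FBgn0001149, 3R 12367817 to 12369268) and GstD3 (FBgn0010039, 3R 12373068 to 12373813) are members of a single cluster of Delta-class genes, with gaps of 2081 and 3799 bases between them. Hsp70Bc (FBgn0013279, 3R 12509076 to 12511461), a gene without introns, follows 135262 bases further on.

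Promoters of these genes, taken as the 250 bases before the annotated start, were searched on both strands for 10 short motifs. The heat shock element core, GAANNTTC, the pair of inverted repeats to which the heat shock factor binds, was present in 2 of the 14 promoters, against 7.57% of 12572 promoters of tested genes. These are the promoter of Hsp70Bc, with matches at bases -190 to -183 and -59 to -52 from the start, and that of GstD10, with a match at -166 to -159. They are printed because they place both families side by side (Release 6 genome of RefSeq, which has the coordinates of dm6), with the matches in capitals.
Hsp70Bc, chr3R:12508826-12509075, plus strand: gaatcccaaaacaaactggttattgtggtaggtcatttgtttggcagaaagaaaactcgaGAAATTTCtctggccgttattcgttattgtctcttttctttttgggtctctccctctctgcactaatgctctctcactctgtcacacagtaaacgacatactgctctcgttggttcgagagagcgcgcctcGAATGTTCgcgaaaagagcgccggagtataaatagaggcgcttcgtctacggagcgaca
GstD10, chr3R:12365736-12365985, minus strand: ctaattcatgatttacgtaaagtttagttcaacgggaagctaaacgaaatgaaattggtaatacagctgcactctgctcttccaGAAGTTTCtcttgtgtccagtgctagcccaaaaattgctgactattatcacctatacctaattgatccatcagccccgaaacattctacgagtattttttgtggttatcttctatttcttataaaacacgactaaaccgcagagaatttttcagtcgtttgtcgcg

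The promoter of GstD1, the most abundant of the 14 genes, held neither the heat shock element core nor the antioxidant response element core, TGACNNNGC. Of the 10 motifs its promoter held the TATA box alone, TATAAA, in capitals below at bases -26 to -21.
GstD1, chr3R:12369269-12369518, minus strand: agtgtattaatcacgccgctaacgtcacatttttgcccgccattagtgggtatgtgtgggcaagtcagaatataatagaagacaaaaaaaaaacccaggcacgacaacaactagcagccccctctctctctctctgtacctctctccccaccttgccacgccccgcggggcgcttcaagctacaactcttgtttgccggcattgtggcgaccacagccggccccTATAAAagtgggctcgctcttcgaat
The TATA box was found in 9 of 14 promoters (40.2% of all) and the initiator core TCAGT in 7 of 14 (37.8% of all). A site like that of NF-kappaB was in the promoters of Hsp70Bc, Spn55B and CG43055 (3 of 14, 4.04% of all). AGATAA, the GATA motif, was in 3 (16.7%), TGANTCA, the AP-1 site, in 2 (5.39%), TTCNNNGAA, the STAT site core, in 1 (7.41%) and the antioxidant response element core in 1, CG15337 (6.75%). TGTTTAC, the FoxO site, and CACGTG, the E-box of the clock, were in none of these windows (7.08% and 2.67% of all). A match describes the letters of a window and does not show that a factor binds there.

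At the ages used for the choice, the size of the rise differed widely. The ratio of the day 50 to the day 10 mean ranged from 2.01 to 7.14 in males (median 2.68) and from 2.02 to 6.31 in females (median 2.19). frac, CG7294, Hsp70Bc and CG31848 had the 4 highest ratios in males. frac, Hsp70Bc, CG7294 and CG15337 had the 4 highest in females. The ratio of frac was 5.62 in males and 6.31 in females, that of CG7294 7.14 and 4.73, and that of Hsp70Bc 4.98 and 5.21. At the other end Spn55B reached 2.01 times its day 10 mean in males and 2.06 times in females, and GstD1 2.07 and 2.02 times.

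**Figure D1:**
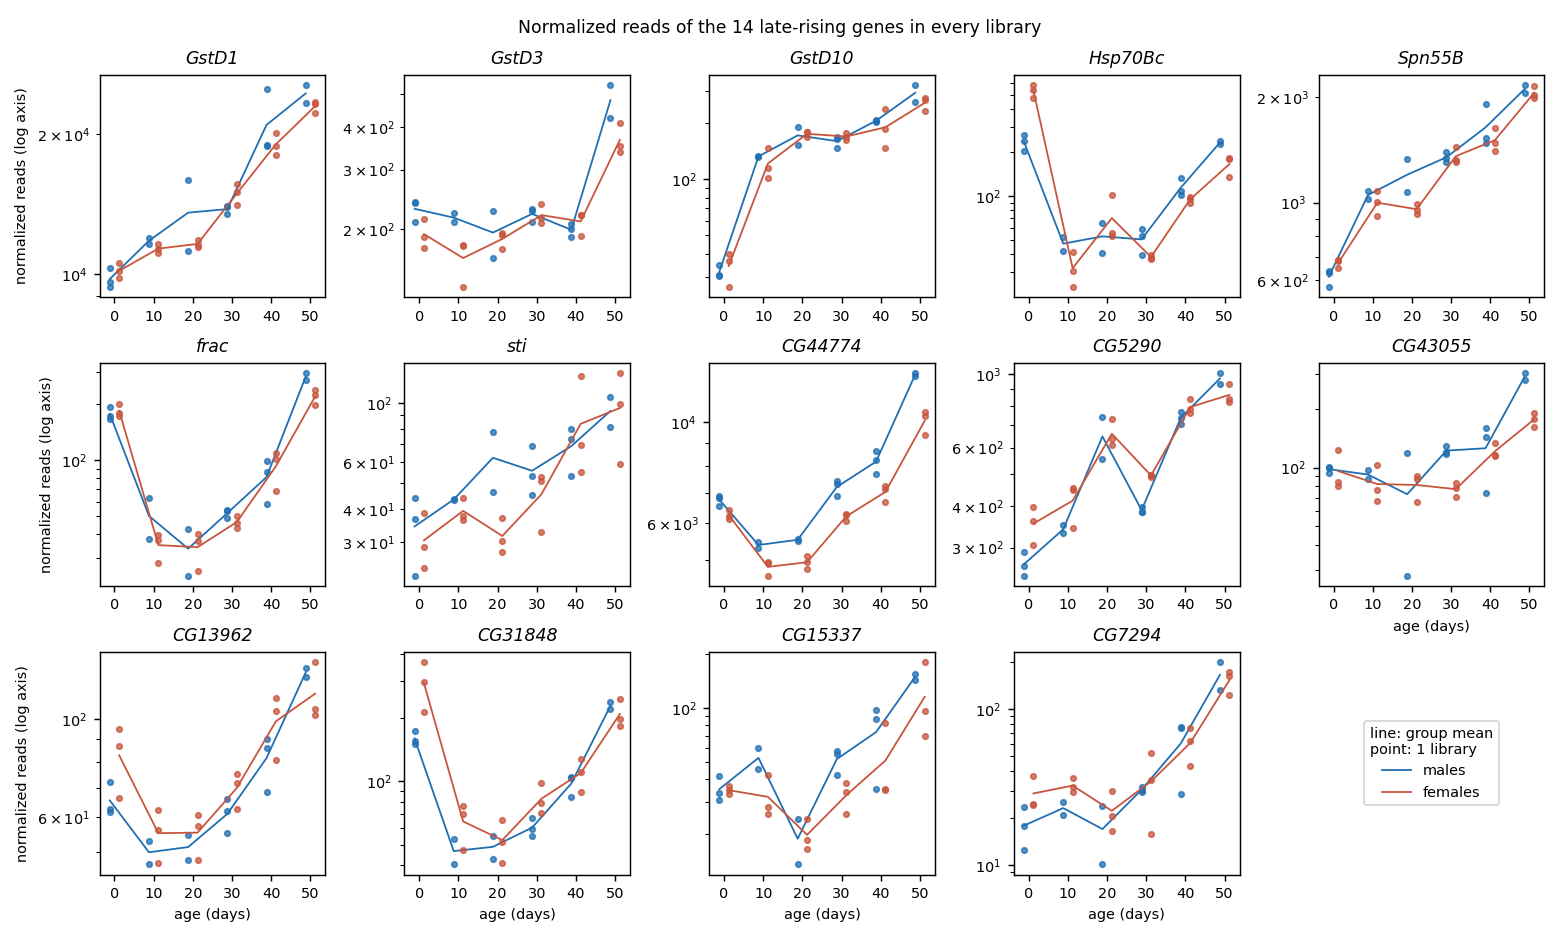
Normalized reads (log axis) of the 14 genes against age in days, with 1 point per library and a line through the group means, in males (blue) and females (red), drawn slightly left and right of their age. GstD1 lies highest, with every library at 9406 normalized reads or more, and sti, CG15337 and CG7294 stay below 100 until day 30. Hsp70Bc, frac and CG31848 start high at day 0.

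Much of the difference lay between days 40 and 50. The choice required a high day 50 mean, so the values that follow describe the genes and nothing is read from them. All 14 genes had a day 50 mean above their day 40 mean in both sexes (27.7% of all tested genes), and 6 of them (GstD3, Hsp70Bc, frac, CG15337, CG7294 and CG31848) had at least 1.5 times the day 40 mean in both sexes (0.836% of all). The median ratio of day 50 to day 40 was 1.796 in males and 1.44 in females. GstD3 had the latest course. Its day 50 mean was 2.41 times the day 40 mean in males and 1.74 times in females, while its day 40 mean was 0.92 and 1.28 times the day 10 mean. At the other end CG5290 at day 40 had covered 73.9% in males and 88.4% in females of its rise from day 10 to day 50, on a log scale.

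The middle ages were not flat for all. The means of CG5290 alternated with age in both sexes. From day 10 to day 50, its male means were 340.5, 648.8, 389.1, 738.1 and 969.9 normalized reads in the order of age, and its female means 415.4, 660.9, 494.8, 795.1 and 865.7. The 3 libraries of day 30 lay below both neighbouring ages in each sex. The choice limited the day 30 mean relative to day 10, which favours a low day 30. Nothing is therefore read from this dip or from the count that follows. Day 20 means above day 30 means in both sexes were found in 3 of 14 genes (CG5290, Hsp70Bc and GstD10) and in 33.2% of all tested genes. In contrast, frac, CG15337, CG43055 and CG7294 had day 20 means below their day 10 means in both sexes. Among chaperones that were not part of the choice, Hsp83, the fly Hsp90, alternated too. Its male means were 27903, 59759, 23334, 54276 and 61654 at days 10 to 50, and its female means 40822, 50131, 28134, 59886 and 61622. Unlike CG5290, Hsp83 had day 30 means below its day 10 means. DnaJ-1 and Stip1 also alternated in both sexes, and Hsp68 did in males alone. Hsp23 and Hsp26 rose at each step from day 10 in both sexes.

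**Figure D2:**
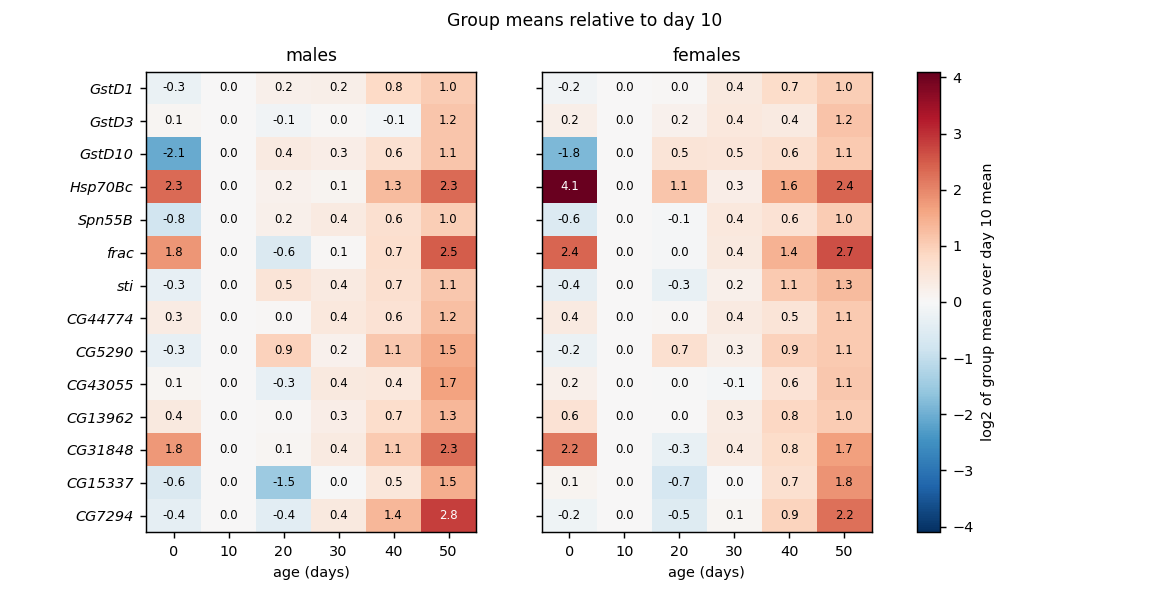
Log2 of each group mean over the day 10 mean of the same sex (colour scale and printed value), for the 14 genes (rows) at 6 ages in days (columns), in males (left panel) and females (right panel). Values at day 30 stay under 0.5 and those at day 50 are at 1 or above, which the choice required. Day 0 values are high for Hsp70Bc, frac and CG31848 and low for GstD10.

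The comparison of day 40 with day 20 asked whether a rise can be seen in libraries that the choice did not use. A rise was seen in both sexes, but this comparison cannot show that it is late. Hsp26, outside the choice, was at 1.63 times its day 10 mean by day 30 in males and 3.43 times in females. It was called higher too, with log2 fold changes of 1.63 in males and 1.30 in females. In males 9 of 14 genes were called higher at day 40 (adjusted p under 0.05 and log2 fold change beyond 0.5, limma with Benjamini-Hochberg adjustment over 12685 genes) and 0 lower, where 7.22% of all tested genes were called higher and 4.38% lower. In females 9 of 14 were called higher and 0 lower, where 3.2% of all were called higher and 2.11% lower. GstD1, frac, CG44774, CG15337, CG7294, CG31848 and CG13962 were called in both sexes, 7 of 14 against 1.82% of all tested genes. All 14 estimates were above 0 in both sexes, with a median log2 fold change of 0.64 in males and 0.68 in females, against medians of -0.01 and -0.04 over all tested genes. The libraries of day 40 all lay above those of day 20 for 10 of 14 genes in males (14.9% of all) and for 11 of 14 in females (16.8% of all), and all below for 0 in either sex (17.4% and 29.7% of all). The summed fat body markers were lower at day 40, with 731800 to 883800 normalized reads at day 40 against 1072000 to 1454000 at day 20 in males, and 4468000 to 5209000 against 7755000 to 8266000 in females. Of the other marker lists, the sum of 6 glia markers was lower in both sexes, with 89410 to 91860 at day 40 against 107000 to 124100 at day 20 in males, and 91090 to 92830 against 96070 to 98780 in females. The sum of 4 ovary markers, of which Vm26Aa and Cp36 had a mean below 10, was higher in both, with 62.1 to 94.99 against 40.48 to 52.97 in males and 56.1 to 75.7 against 33.2 to 44.9 in females. Photoreceptor markers were lower at day 40 in males and higher in females, accessory gland markers were higher in males, and markers of neurons, muscle and hemocytes were lower in females, each without overlap. Gene by gene, of 7 fat body markers 3 were called lower in males and 1 in females, and 0 higher. Of 6 glia markers 0 were called in either sex, with median log2 fold changes of -0.28 in males and -0.03 in females. The part of these markers in the results was not tested.

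**Figure D3:**
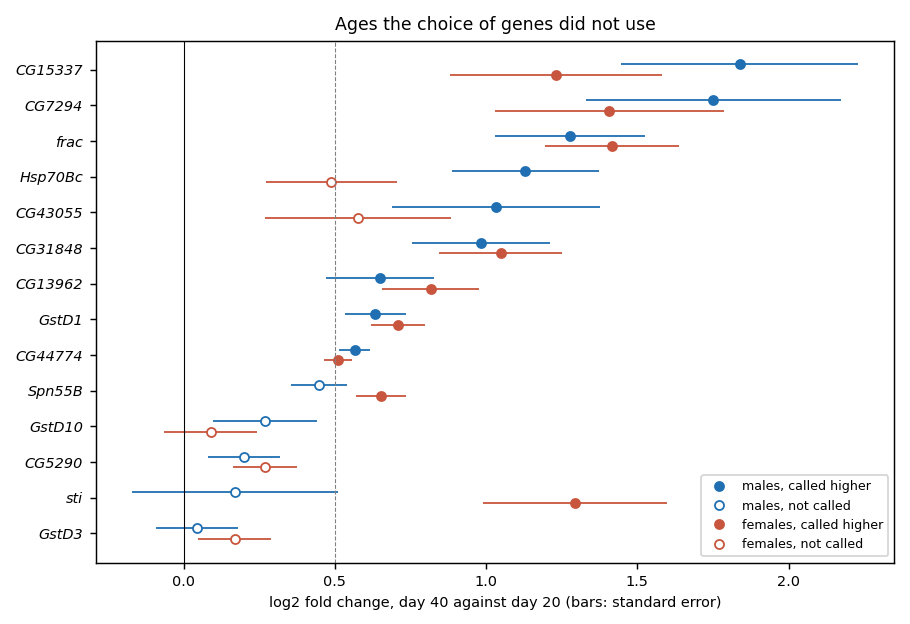
Log2 fold change of day 40 against day 20 (horizontal axis) with its standard error for the 14 genes (rows), in males (blue) and females (red), with filled points for genes called higher and open points for genes not called. The dashed line marks the fold change of 0.5 needed for a call. All 28 points lie above 0, and CG15337, CG7294 and frac have the largest estimates in males.

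Among the detoxification genes GstD1 rose in both sexes and its neighbours GstD3 and GstD10 did not pass the test. GstD1 had 24936, 18898 and 18948 normalized reads in the 3 male libraries of day 40, against 15907 and 11233 in those of day 20. Female libraries had 18878, 20151 and 18037 at day 40, against 11560, 11872 and 11454 at day 20. Day 40 and day 20 did not overlap in either sex. Its log2 fold change was 0.63 ± 0.10 (SE, adjusted p = 2.15e-05) in males and 0.71 ± 0.09 (adjusted p = 1.42e-06) in females. The highest male libraries at both ages are the GC-rich ones named above. Without male day 20 replicate 2 the estimate was 0.38, below the fold needed for a call, and without both GC-rich libraries it was 0.75.

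GstD3 had 207, 190 and 200.2 normalized reads in male libraries of day 40, against 164 and 227 at day 20, and in females 220.4, 191 and 220.5 against 175, 195 and 192. The ages overlapped in both sexes, and the log2 fold change was 0.05 ± 0.14 (adjusted p = 0.825) in males and 0.17 ± 0.12 (adjusted p = 0.392) in females. GstD10, the third gene of the cluster, had 207, 210 and 203 normalized reads in males of day 40, against 153 and 192 at day 20, and 147, 238 and 187 in females, against 179, 180 and 169. Its estimates were 0.27 ± 0.17 (adjusted p = 0.244) in males and 0.09 ± 0.15 (adjusted p = 0.76) in females. The Delta genes are alike in sequence, with 71.1% identical bases between the exons of GstD1 and GstD3, 73% between GstD1 and GstD10 and 71.3% between GstD3 and GstD10.

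Hsp70Bc was called in males alone. Male libraries had 102, 132 and 108 normalized reads at day 40, against 64.96 and 40.5 at day 20. Female libraries had 95.7, 90.1 and 98.8 at day 40, against 53.4, 102 and 55.8 at day 20, where replicate 2 of day 20 exceeded all 3 libraries of day 40. This gave a log2 fold change of 1.13 ± 0.24 (adjusted p = 0.000779) in males and 0.49 ± 0.22 (adjusted p = 0.124) in females, and 0.78 (adjusted p = 0.0111) in females without that replicate. With scaling to total linear reads it was called in females too (0.61, adjusted p = 0.0412). The difference between the sexes in this change, 0.64 ± 0.33, was not called (adjusted p = 0.244). The exons of Hsp70Bc are 94.5% to 98.1% identical to those of the other 5 Hsp70 copies, so its reads cannot be assigned with certainty.

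Spn55B, the serpin, passed both thresholds in females. It had 1910, 1484 and 1527 normalized reads in males of day 40, against 1333 and 1069 at day 20, and 1406, 1635 and 1483 in females of day 40, against 927, 994 and 951 at day 20. No library of day 20 reached day 40 in either sex. limma estimated a log2 fold change of 0.45 ± 0.09 (adjusted p = 0.000532) in males, below the fold needed. The male estimate was 0.29 without day 20 replicate 2 and 0.61 without day 20 replicate 1. edgeR (0.63) and DESeq2 (0.61) also lacked replicate 1, so each of these fits used a single male library of day 20. The male estimate passed without day 40 replicate 2 (0.52) and with scaling to total linear reads (0.55). In females it was 0.65 ± 0.08 (adjusted p = 1.45e-06).

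frac, the matrix gene, had one of the largest changes. Its day 20 mean was 0.67 times its day 10 mean in males and 0.98 times in females. Male libraries had 86.9, 57.9 and 99.2 normalized reads at day 40, against 24.0 and 43.0 at day 20. Female libraries had 109, 68.1 and 102 at day 40, against 40.2, 36.7 and 25.5 at day 20. The ages did not overlap in either sex, and the log2 fold change was 1.28 ± 0.25 (adjusted p = 0.000257) in males and 1.42 ± 0.22 (adjusted p = 2.86e-05) in females. Without both GC-rich male libraries it was 0.80 (adjusted p = 0.0477) in males.

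The citron kinase gene sti was called in females alone. Male libraries had 53.3, 79.8 and 73.2 normalized reads at day 40, against 78.0 and 46.4 at day 20, and the 2 ages overlapped. Female libraries spread widely at day 40, with 126, 54.9 and 69.6, against 36.9, 27.5 and 30.3 at day 20, without overlap. The estimate was a log2 fold change of 0.17 ± 0.34 (adjusted p = 0.734) in males and 1.29 ± 0.30 (adjusted p = 0.00272) in females. The difference of the change between males and females, -1.13 ± 0.46, had an unadjusted p of 0.0204 by limma and was not called (adjusted p = 0.139), but was called without male day 20 replicate 2 (-1.49, adjusted p = 0.0167).

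Of the 7 genes with CG names, CG44774 is by far the most abundant and had the smallest error. It had 7680, 8254 and 8635 normalized reads in males of day 40, against 5492 and 5562 at day 20, and 7259, 6686 and 7155 in females, against 4765, 4952 and 5095. On the log2 scale the change was 0.57 ± 0.05 (adjusted p = 2.63e-09) in males. In females it was 0.51 ± 0.05 (adjusted p = 4.45e-09), near the threshold of 0.5, and it fell just under that threshold, to 0.48 to 0.50, without day 20 replicate 1, day 40 replicate 1 or day 40 replicate 3.

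CG31848 and CG13962 rose in both sexes from levels near 50. CG31848 had 84.6, 104 and 104 normalized reads in males of day 40, against 55.0 and 43.0 at day 20, and 89.1, 111 and 128 in females, against 65.3, 51.6 and 41.3, with no overlap. Its log2 fold change was 0.98 ± 0.23 (adjusted p = 0.00158) in males and 1.05 ± 0.20 (adjusted p = 0.00041) in females. CG13962 had 68.3, 90.2 and 86.2 in males of day 40, against 48.0 and 54.8 at day 20, and 111, 104 and 80.6 in females, against 57.4, 48.1 and 60.7. Its ages did not overlap either. This gave a log2 fold change of 0.65 ± 0.18 (adjusted p = 0.00708) in males and 0.82 ± 0.16 (adjusted p = 0.000462) in females. The male call was lost without day 20 replicate 1 (0.56), and with edgeR (0.59) and DESeq2 (0.58), which also lacked that library.

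CG15337 and CG7294 had the largest estimates in males and the least certain ones. Both started from a low day 20. The day 20 mean of CG15337 was 0.36 times its day 10 mean in males and 0.61 times in females, and that of CG7294 0.73 and 0.69 times. By day 30 CG15337 was at 2.77 times its day 20 mean in males and 1.66 times in females. Its change to day 40 thus includes a return from that low, and its day 40 mean was 1.39 and 1.59 times its day 10 mean. CG15337 had 86.9, 97.8 and 35.2 normalized reads in males of day 40, against 24.0 and 13.5 at day 20. In females it had 35.6, 35.2 and 82.2 at day 40, against 16.5, 18.3 and 24.3. In each sex 1 library of day 40 stood far from the other two. limma estimated a log2 fold change of 1.84 ± 0.39 (adjusted p = 0.000709) in males and 1.23 ± 0.35 (adjusted p = 0.0132) in females. CG7294 had 75.3, 76.9 and 28.7 in males of day 40, against 24.0 and 10.1 at day 20, and 43.4, 62.6 and 75.9 in females, against 16.5, 29.8 and 20.6. It changed by 1.75 ± 0.42 (adjusted p = 0.00236) in males and 1.41 ± 0.38 (adjusted p = 0.00849) in females. Both female calls were lost without day 20 replicate 1, where the adjusted p was 0.0583 for CG15337 and 0.0521 for CG7294, and without day 40 replicate 3, where it was 0.129 and 0.0505, so the female count was 6 of 14 without either library.

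CG43055 was called in males, but the call depended on single libraries. It had 74.1, 160 and 143 normalized reads in males of day 40, against 28.0 and 118 at day 20, where the low value is that of the GC-rich replicate 1, and CG43055 has the lowest GC content of the 14 genes (40.8%). Females had 134, 114 and 115.4 at day 40, against 90.4, 66.5 and 87.4 at day 20. The ages overlapped in males and did not in females. The estimate was a log2 fold change of 1.03 ± 0.34 (adjusted p = 0.0237) in males, and 0.01 (adjusted p = 0.984) without day 20 replicate 1. The call was also lost without day 40 replicate 2 (0.82, adjusted p = 0.11) or day 40 replicate 3 (0.90, adjusted p = 0.0847). edgeR (0.11) and DESeq2 (0.10) lacked male day 20 replicate 1 as well and used 1 male library of that age. Without day 20 replicate 2 the estimate was 2.05. In females it was 0.58 ± 0.31 (adjusted p = 0.216), and it was called with edgeR (adjusted p = 0.0232) and DESeq2 (adjusted p = 0.0173). CG5290, with its high day 20, had estimates of 0.20 ± 0.12 (adjusted p = 0.203) in males and 0.27 ± 0.11 (adjusted p = 0.0759) in females.

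Early in adult life some of the 14 genes rose and others fell. Between day 0 and day 20, 4 of 14 were called higher and 4 lower at day 20 in males, where 18.3% of all tested genes were called higher and 23.8% lower. In females 3 were called higher and 5 lower (20.1% and 20.5% of all). GstD10, CG5290 and Spn55B were called higher in both sexes (3 of 14, 13.4% of all), and Hsp70Bc, frac, CG31848 and CG15337 lower in both (4 of 14, 16.8% of all). With 14 genes these counts cannot be set apart from the shares of all tested genes, so they describe single genes and not a trait of the choice.

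GstD10 had the largest early rise. It had 153 and 192 normalized reads in males of day 20, against 30.2, 30.8 and 34.6 at day 0, and 179, 180 and 169 in females of day 20, against 40.0, 26.5 and 36.3 at day 0. On the log2 scale the change was 2.39 ± 0.17 (adjusted p = 1.57e-12) in males and 2.35 ± 0.15 (adjusted p = 1.77e-13) in females. Its day 0 mean was 0.18 times its day 20 mean in males and 0.19 times in females. CG5290 rose by 1.26 ± 0.12 (adjusted p = 3.57e-10) in males and 0.90 ± 0.11 (adjusted p = 2.24e-08) in females on the log2 scale, and Spn55B by 0.96 ± 0.09 (adjusted p = 6.77e-10) and 0.51 ± 0.08 (adjusted p = 5.16e-06). The female estimate of Spn55B was 0.48 without day 20 replicate 2 and also without day 0 replicate 3, below the fold needed.

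Hsp70Bc had one of the largest early falls. It had 64.96 and 40.5 normalized reads in males of day 20, against 263, 238 and 204.6 at day 0, and 53.4, 102 and 55.8 in females of day 20, against 535, 585 and 473 at day 0. Its log2 fold change was -2.17 ± 0.24 (adjusted p = 1.08e-08) in males and -2.96 ± 0.22 (adjusted p = 2.01e-12) in females. At day 50 its mean was 0.99 times that of day 0 in males and 0.31 times in females, and the male libraries of the 2 ages overlapped.

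frac had 24.0 and 43.0 normalized reads in males of day 20, against 174, 166 and 193 at day 0, and its log2 fold change was -2.43 in males (± 0.25, adjusted p = 1.83e-09) and -2.43 in females (± 0.22, adjusted p = 1.74e-10). CG31848 had a log2 fold change of -1.69 ± 0.23 (adjusted p = 2.69e-07) in males and -2.43 ± 0.20 (adjusted p = 2.92e-11) in females. For these genes the later increase followed an early fall. The day 50 mean of CG31848 was 1.43 times that of day 0 in males and 0.71 times in females, and that of frac 1.59 and 1.19 times.

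CG15337 was lower at day 20 by smaller margins, -0.92 ± 0.39 (adjusted p = 0.0403) in males and -0.81 ± 0.35 (adjusted p = 0.0432) in females. Its level at both ages was under 42 normalized reads in each library, and neither call was stable. Both were lost with a pseudocount of 10 (adjusted p = 0.0731 in males and 0.0722 in females) and with edgeR. With edgeR the adjusted p was 0.0793 in females, and the male estimate was -1.33 from 1 library of day 20. The male call was also lost with the replicate number as a block (adjusted p = 0.053), with scaling to total linear reads (0.076), and without day 0 replicate 1 (0.11), day 0 replicate 3 (0.0606) or day 20 replicate 2 (-0.53, adjusted p = 0.326). The female call was also lost without the filter on low genes (adjusted p = 0.0502), without any single library of day 0 (0.0664 to 0.0931) and without day 20 replicate 1 (0.127) or 2 (0.0947). CG13962 was called lower in females (-0.56 ± 0.16, adjusted p = 0.00309) and sti higher in males (0.84 ± 0.34, adjusted p = 0.0308). The call of CG13962 was lost without day 20 replicate 2 or day 0 replicate 2, and that of sti without male day 20 replicate 1 (0.48, adjusted p = 0.333) or male day 0 replicate 2 (0.57, adjusted p = 0.161). The female count was 5 of 14 without day 20 replicate 2. CG44774 had estimates below the fold needed in both sexes (-0.29 ± 0.05 in males and -0.34 ± 0.05 in females, adjusted p = 1.69e-05 and 2.2e-07), and GstD1 had estimates of 0.45 ± 0.10 (adjusted p = 0.000289) in males and 0.19 ± 0.09 (adjusted p = 0.06) in females. The male estimate of GstD1 was 0.20 without day 20 replicate 1, and it passed the fold needed without day 20 replicate 2 (0.70) and with scaling to total linear reads (0.60).

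Between males and females, 2 of 14 genes were called at day 0, 1 at day 20 and 0 at day 40. These counts are too small to be set apart from the shares of all tested genes given with them. At day 0, 0 of 14 were called higher and 2 lower in males than in females (2.22% and 2.99% of all tested genes). Hsp70Bc had 263, 238 and 204.6 normalized reads in males of day 0, against 535, 585 and 473 in females, a log2 fold change of -1.17 ± 0.22 (adjusted p = 0.000242). CG31848 had 174, 155 and 150 in males, against 212, 366 and 297 in females, a change of -0.83 ± 0.20 (adjusted p = 0.00358). The sexes did not overlap in either gene.

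At day 20, 1 of 14 was called higher in males and 0 lower (4.89% and 11.7% of all). This was sti, with 78.0 and 46.4 normalized reads in males, against 36.9, 27.5 and 30.3 in females (log2 fold change 0.92 ± 0.34, adjusted p = 0.0311), and the call was lost without male day 20 replicate 1 (0.55, adjusted p = 0.342). It was also lost without female day 20 replicate 2 (0.83, adjusted p = 0.0875) or female day 20 replicate 3 (0.89, adjusted p = 0.0663). With edgeR and DESeq2, which also lacked male day 20 replicate 1, the estimate was 0.54 in both. For Hsp70Bc DESeq2 gave -0.77, also from 1 male library of day 20. At day 40, 0 of 14 were called in either direction (3.89% of all higher and 6.33% lower in males). At that age 1 gene had an unadjusted p under 0.05, CG44774, which was higher in males by 0.22 ± 0.05 on the log2 scale (adjusted p = 0.000433), below the fold needed, and edgeR and DESeq2 called 0. Whether the step between day 20 and day 40 differed by sex was tested as a contrast, and 0 of 14 genes were called (1.93% of all higher and 1.39% lower). For this difference sti alone had an unadjusted p under 0.05. For Hsp70Bc DESeq2, with 1 male library of day 20, gave 1.04.

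The families of these genes show how narrow the choice was. The other 5 Hsp70 copies also stood higher at day 50 than at day 10, by 5.41 to 9.05 times in males and 5.63 to 13.1 times in females. In females each of them was at 1.94 to 3.80 times its day 10 mean by day 30. These ratios start from few reads, with day 10 means from 1.69 (Hsp70Ba) to 17.97 (Hsp70Bb) in females and from 2.25 to 39.35 in males. As with Hsp70Bc, reads of these near-identical copies cannot be assigned with certainty. Against day 20, at day 40 all 5 other copies were called higher in males, with log2 fold changes of 1.31 to 2.32, and Hsp70Ba was called in females (2.28 ± 0.64, adjusted p = 0.0123). That female call rests on means of 3.17 normalized reads at day 20, with a lowest library of 0, and 14.05 at day 40. The male calls use the GC-rich day 20 replicate 1 and were not examined without it. Hsp70Ab and Hsp70Bb had the largest male estimates. Their 2 male day 20 libraries lay far apart, at 5.996 and 34.57 and at 12.99 and 53.1 normalized reads. Male day 20 means were 12.24 for Hsp70Aa, 6.605 for Hsp70Bbb and 1.921 for Hsp70Ba. Of 18 tested genes of the heat shock list, 10 were called higher and 0 lower at day 40 in males and 5 higher and 0 lower in females, with medians of 0.68 and 0.61. Hsp70Bc is the one late-rising gene in that list.

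In the cluster of Delta-class transferases, GstD9, which lies between GstD10 and GstD1, missed the choice by little, with ratios of day 50 to day 10 of 2.02 in males and 1.90 in females. GstD5 had the largest ratio, 1067 normalized reads at day 50 against 9.48 at day 10 in males and 159 against 8.91 in females, but was at 1.84 times its day 10 mean by day 30 in females. GstD2 had left its day 10 level by day 30 in both sexes (2.11 times in males and 2.86 times in females), and GstD11 had a lower mean at day 50 than at day 10. Of 27 tested glutathione transferases, 4 were called higher and 2 lower at day 40 against day 20 in males, and 6 higher and 0 lower in females, with medians of 0.05 and 0.21. GstD1 was the single one of the 3 late-rising transferases among these calls, and GstD2 and GstE1 were called beside it in both sexes.

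**Figure D4:**
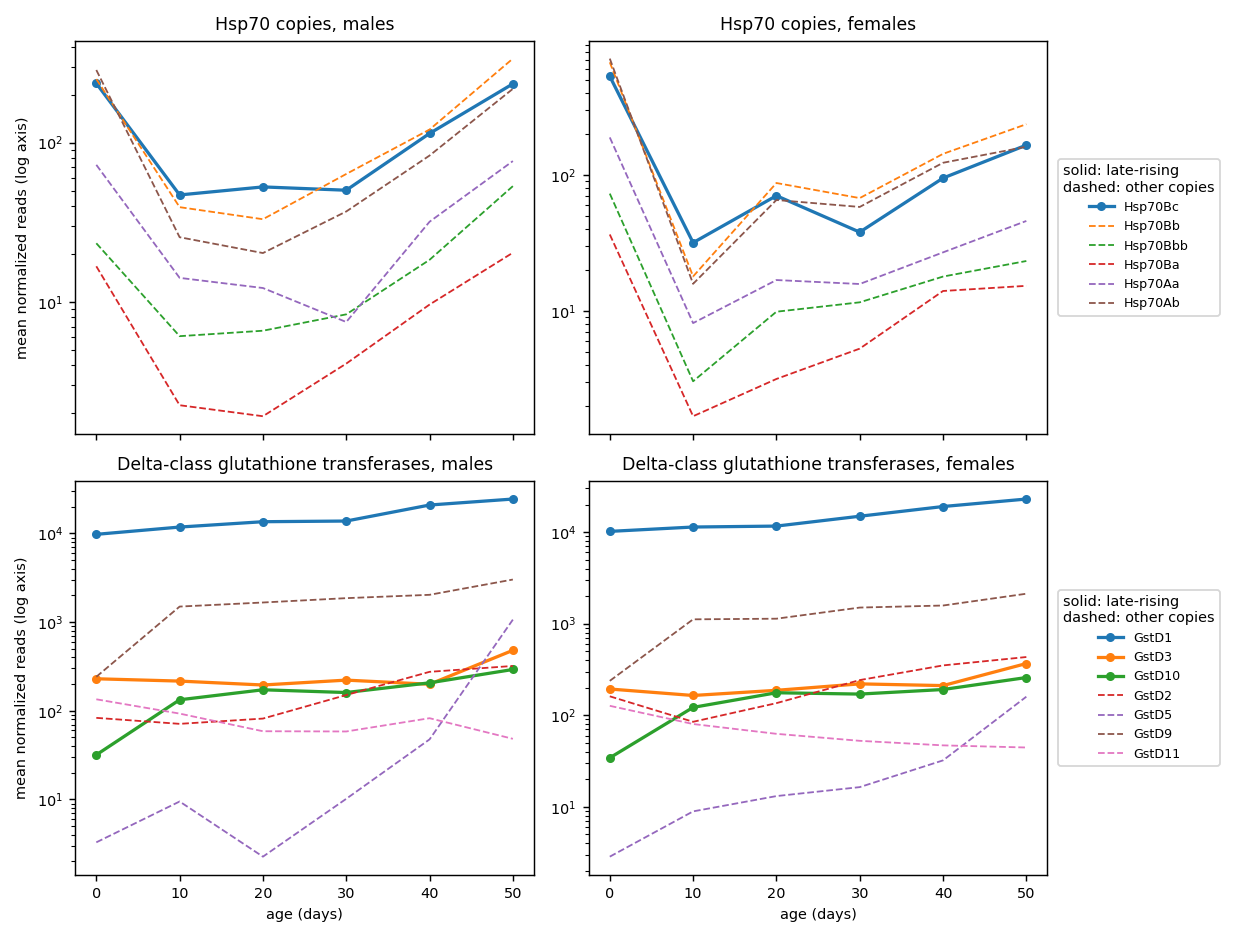
Group means in normalized reads (log axis) against age in days for the 6 Hsp70 copies (upper panels) and for 7 Delta-class glutathione transferases (lower panels), in males (left) and females (right), with solid lines for Hsp70Bc, GstD1, GstD3 and GstD10 and dashed lines for the others. Female Hsp70Ab and Hsp70Bb are above their day 10 level by day 20, and male GstD5 reaches a mean of 1067 normalized reads at day 50.

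Other stress and immune lists, chosen for the fly head and without any of the 14 genes, moved to differing degrees between day 20 and day 40. Part of the lists is given here. Over all tested genes 7.22% were called higher and 4.38% lower in males, and 3.2% and 2.11% in females. Male day 20 includes the GC-rich replicate 1, and the lists were not examined without it. Antimicrobial peptides were called higher in 14 and lower in 1 of 15 tested genes in males and higher in 5 of 15 in females. Of 17 Toll-driven peptides, 8 were called higher in males and 3 in females, and 0 lower. Of 15 peptidoglycan recognition genes, 6 were called higher and 1 lower in males and 5 higher and 0 lower in females. Of 20 genes of Toll and Imd signalling, 1 was called higher and 1 lower in males and 0 in females. Of 18 genes of DNA damage and cell death, 6 were called higher in males and 2 in females, and 0 lower in either sex. Of 13 redox genes, among them the superoxide dismutases and catalase, 0 were called higher and 2 lower in males and 0 were called in either direction in females. Of 12 thioester proteins and serpins, a list that does not hold Spn55B, 1 was called higher (Spn27A) and 1 lower (Spn43Aa) in males and 0 in females.

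A single circRNA of these genes was listed with a mean of at least 1 normalized read, a circle of CG44774 (X 4927649 to 4930065, as the table gives it). It had 11.6, 23.7 and 13.0 normalized back-splice reads in males of day 40, against 10.99 and 13.5 at day 20, and 33.4, 26.4 and 49.8 in females, against 25.1, 18.3 and 19.4. This gave a log2 fold change of 0.31 ± 0.57 (adjusted p = 0.886) in males and 0.74 ± 0.51 (adjusted p = 0.488) in females, so it was called in 0 of 2 comparisons, where 2.26% of 4372 circRNAs were called higher in males and 2.42% in females (lower, 0.0457% and 0.0229%). At day 0 it was at 0 in 2 of 3 male libraries and at 2.4 to 11.03 normalized reads in females. Its values at the other ages were not tested.

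The borders of the choice were close for several genes. The genes nearest to the 2-fold limit were Spn55B (lower of both sexes 2.01) and GstD1 (2.02) inside, and Stip1, a co-chaperone of Hsp90, (1.99), Neurochondrin (1.99) and Fer2LCH, a ferritin subunit, (1.98) outside. GstD10 lay just inside the limit on day 30, at 1.397 times day 10 in females (limit 1.4), with rempA (1.42), CG13502 (1.44) and sage (1.46) just outside. At the level of 50 normalized reads, sti (93.3) and CG13962 (114) were the lowest inside, and lncRNA:CR45973 (45.8), CG45079 (39.7) and Klp61F (26.8) just outside. Leaving out each library of days 10, 30 and 50 in turn gave 11 to 16 genes, and of the 14 only CG44774 and CG15337 were kept in all 16 cases.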

How the data were processed

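Heads of CantonS males and females were measured in 33 libraries of 12 groups. The authors aligned reads to dm6 with STAR, counted linear reads per gene with featureCounts, found circRNAs with find_circ2 and deposited the values as signal, reads over the DESeq2 size factor of the library. Tool versions and the strand setting are not given in the sources used here. The genes were chosen, and the gene lists set up, with earlier results of these data known.

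Log2(normalized reads + 1) of 12685 linear genes with a mean of at least 10 was fitted with limma 3.58.1 (trend and robust, 12 group means), with Benjamini-Hochberg adjustment, and a call needed both a log2 fold change beyond 0.5 and an adjusted p under 0.05. Fold changes are on that scale, which understates those of low genes. CircRNAs with a mean of at least 1 were fitted alike. Female day 50 replicates 1 and 2 had equal recovered back-splice reads for all 4330 circRNAs found in either of them and were counted as 1 sample for circRNAs. Whole reads were recovered from the normalized values (100% of values within 0.01 of a whole number). edgeR 4.0.16 and DESeq2 1.42.0, run as alternatives, used 32 libraries. Male day 20 replicate 1, whose step lies close to 1, was left out of both. Male day 20 then rested on replicate 2 alone, so for that group these alternatives are not separate from leaving out replicate 1. Of 410 list symbols, 396 matched. Coordinates of all 14 genes were equal in the Ensembl BDGP6.54 and RefSeq Release 6 annotations. Named genes were set by rule: those called in both sexes, the most abundant, members of lists, those nearest the limits of the choice and hosts of circRNAs; with 14 genes all are named. Genes outside the choice (Hsp83, GstD5, GstD9 and others of these families) were named after their values were seen. R was 4.3.3 and Python 3.11.15.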

Additional observations from a re-analysis of the deposited data

How the results depend on the processing

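Between day 20 and day 40 the number of genes called stayed within 1.5 times, at 8 to 10 in males and 6 to 10 in females, and estimates kept their sign under the settings tried except as follows. GstD3 in males turned to -0.18 with edgeR, -0.19 with DESeq2 and -0.22 without both GC-rich male libraries, a setting added after seeing the data. Each of these settings lacked male day 20 replicate 1. GstD3 in males also changed sign when single libraries were left out (-0.19 to 0.28). So did GstD10 in females (-0.084 to 0.26), sti in males (-0.20 to 0.54), CG5290 in males (-0.011 to 0.41) and, for day 20 against day 0, sti in females (-0.083 to 0.25), none of them called. The number of genes chosen was 4 with a 3-fold rise, 3 with day 30 held to 1.2 times, 27 with a level of 10 and 15 with group medians (10 shared). For males against females at day 20, the count was 0 with edgeR and 0 to 2 without single libraries. With DESeq2 it was 1, but this was Hsp70Bc, called lower, in place of sti. Without both GC-rich libraries it was 2, Hsp70Bc lower (-0.72) and CG43055 higher (0.54), and sti was not called. Without male day 20 replicate 2 the estimate of sti was 1.29 and that of CG43055 -1.49. edgeR, DESeq2 and the fits without a male day 20 library or without both GC-rich libraries each rested on 1 male library of day 20. The sex difference of the change was called for 1 gene with DESeq2 and 0 to 2 without single libraries, and the difference at day 40 for 0 to 1. For day 20 against day 0 in females the count was 5 to 8 without single libraries.

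Replicate numbers were treated as names of samples. Same-numbered deviations correlated by -0.09 to 0.48, and both pairs exceeded 0.1 only in males of days 20 and 40 (0.48 for replicate 1 and 0.33 for replicate 2). The replicate 1 libraries of these 2 ages are the GC-rich ones, so in these males the number goes with a shared deviation. With the replicate number as a block, 9 genes were called at day 40 in males and 9 in females, and 7 at day 20 against day 0 in males, and the other counts did not move. Scaling to total linear reads shifted the median of all genes at day 40 against day 20 by 0.10 in males and 0.12 in females and moved the share of higher calls to 76.9% against 62.3% in males and to 80% against 60.2% in females, with 10 late-rising genes called in each sex. Against day 0 that share in males moved to 56.7% against 43.5%, and between the sexes at day 20 to 60.2% against 29.5% and at day 40 to 65.1% against 38.1%. Depth limits sti, CG15337, CG7294 and the circle of CG44774, which rest on few reads. The causes of these shifts were not tested.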
